A study of Mus musculus with 8 samples.

Results

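A set of 10 JAK-STAT pathway genes was followed in cultured mouse lung ILC2s: the signal transducers Stat3, Stat5a, Stat5b and Stat6, the feedback inhibitors Cish, Socs1, Socs2 and Socs3, and the kinases Pim1 and Pim2, which STATs induce. They were chosen by gene symbol from the per-library count files, and all 10 were found among the 23183 genes listed and all 10 were among the 12239 genes with enough reads to be tested. The series holds 8 mRNA-seq libraries from ILC2s of wild-type C57BL/6 mice (the J substrain, by the methods), 4 treated for 3 h with 5 µM Yoda1, a small-molecule opener of the mechanosensitive ion channel Piezo1, and 4 treated for the same time with 0.1% DMSO, its solvent. Cells of both groups had been enriched from the lungs of mice given IL-33 and were cultured with IL-2, IL-7 and IL-33, so the cytokine signals that feed STAT5 were present in DMSO as well as in Yoda1. The mice were male and female and 6 to 10 weeks old.

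Cytokine receptors of the common gamma chain and interferon families have no enzyme activity of their own and signal through bound Janus kinases, which phosphorylate STAT proteins. Phosphorylated STATs pair, enter the nucleus and bind DNA sites whose core is a TTC and a GAA separated by a short spacer. Among their targets are the Cish and Socs genes, whose proteins bind the receptor or kinase and end the signal, so the level of their mRNA is often read as a trace of recent STAT activity. In ILC2s, IL-2 and IL-7 act mainly through STAT5, which sustains survival and growth. IL-4 and IL-13 act through STAT6 in cells that carry their receptors. The STAT proteins themselves are switched by phosphorylation, which mRNA-seq does not measure.

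The site that STAT5 and STAT3 bind was looked for in the promoters of these genes. Windows ran from 250 bases before to 50 bases after the start given by RefSeq (GRCm38.p6). Of the 10 members 9 were matched there, and Socs2 was not matched, so its promoter was not searched. The letters TTCNNNGAA, which read the same on both strands, occurred 2 times at Cish and 1 time at Socs3, and in none of the windows of the other 7 matched members. The longer form TTCNNNNGAA, the spacing preferred by STAT6, occurred in none of the 9. Both windows are shown because they carry these letters beside feedback genes, with the matched sites in capitals. The Cish window lies at chr9:107296654-107296683 on the plus strand, in the 5′ UTR of the first exon of Cish. The Socs3 window lies at chr11:117969501-117969530 on the minus strand, upstream of the RefSeq start of Socs3. It is inside the longer GENCODE model of Socs3, in an intron of another transcript of that gene.
Cish: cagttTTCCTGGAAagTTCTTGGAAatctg
Socs3: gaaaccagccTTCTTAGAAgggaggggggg
Across all 32851 RefSeq promoters, 8.30% held TTCNNNGAA and 6.95% held TTCNNNNGAA. Among the tested genes with a matched promoter, TTCNNNGAA was found in 10.1% of the 575 that rose with Yoda1, in 9.47% of the 454 that fell and in 8.45% of all 9319. A match describes the letters only, and binding was not measured.

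The members lie in several places of the genome (GRCm38 with GENCODE M21 gene models). Stat5b (chr11:100780731-100850724, minus strand, 19 exons), Stat5a (chr11:100859351-100885169, plus strand, 20 exons) and Stat3 (chr11:100885098-100939540, minus strand, 24 exons) are neighbours, and Stat5a and Stat3 overlap at their ends by 72 bases on opposite strands. Stat6 (chr10:127642986-127660957) overlaps Nab2, Cish (chr9:107296026-107302784) overlaps the gene models Gm17040 and Gm17041, and Pim1 (chr17:29490753-29496112) overlaps Gm26885, each on the opposite strand. The remaining members are Socs1 (chr16:10782240-10785536), Socs2 (chr10:95385362-95417180), Socs3 (chr11:117966079-117970047) and Pim2 (chrX:7878262-7883432). Libraries were made with a directional kit, but the strand setting of the counting is not given in the sources used here, so reads at these overlaps could not be assigned to one gene with certainty. Of all 50-base stretches of its exons, Stat5a shared 15.8% exactly with Stat5b, Stat5b shared 11.8% with Stat5a, Socs2 shared 18.4% with the pseudogenes Gm9847 and Gm8000, and Pim2 shared 4.04% with Gm7645 and Gm21182, so part of these counts is uncertain.

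Library totals ran from 12438009 to 19534653 counts, and TMM scaling factors from 0.988 to 1.01. Values below are CPM (counts of a gene scaled to a common library total, with TMM factors), means are given ± SD over 4 libraries, and a change is a log2 fold change, Yoda1 over DMSO, with its standard error (SE). A gene is called changed where its Benjamini-Hochberg adjusted p from the edgeR quasi-likelihood fit is under 0.05. By this rule 739 genes were higher and 592 lower in Yoda1, 1331 in all, and the split of higher and lower was 505 and 958 with upper-quartile factors and 553 and 809 with library totals as the only scaling. The summed CPM of 14 ILC2 marker genes ran from 18732 to 19255 in DMSO and from 21039 to 21436 in Yoda1. Of the 14, 7 rose and 1 fell, 57.1% beside 10.9% of all genes tested. The sum includes the cytokine genes Il13 (means of 5431 in DMSO and 6667 in Yoda1) and Il5 (3337 and 3672), which are among the 7. The other rises were Arg1 (log2 0.32), Areg (0.20), Il1rl1 (0.13), Ptprc (0.12) and Thy1 (0.11), and Icos fell (-0.18). Gata3, Rora and Id2 were among the 6 not called, with log2 fold changes of 0.00020, 0.034 and -0.023. Sums for other cells were far lower. For 8 NK or CD8 T cell genes they were 804 to 894 in DMSO and 856 to 922 in Yoda1. Of these 2 rose, Eomes (log2 0.21) and Prf1 (0.14). By gene the gap was not uniform. Prf1 (mean of 385 CPM in DMSO) and Gzma (344) lay above the ILC2 markers Areg (281), Icos (249) and Klrg1 (69.9). The rest of the 8 lay below every ILC2 marker. Sums were 108 to 115 and 112 to 120 for 6 T cell genes. For 5 stromal and epithelial genes they were 213 to 227 and 218 to 223, nearly all of it Pecam1, which leukocytes also express (211 to 225 CPM). They were under 10 in every library for each of the B cell, macrophage and mast cell or basophil lists. Ms4a1, Pax5, Lyz2, Csf1r, C1qa, C1qb, Mrc1, Fcer1a, Mcpt4, Sftpc and Cdh5 had at most 3 counts in any library. The part of the small shift in ILC2 and NK markers in the results below was not tested. In bulk RNA, fewer cells with a transcript and less of it per cell cannot be told apart, and since no source used here says if samples are separate mice or separate cultures, p-values measure the spread between these samples, which may be technical.

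Of the 10 members, 2 changed and both fell: Socs2 and Pim2. The share, 20% of 10 genes, stands beside 10.9% of all genes tested (4.84% for falls and 6.04% for rises). No member rose by edgeR, and none did by DESeq2 or limma-voom, although 4 were higher at an unadjusted p under 0.05. In either direction, 6 of the 10 members had an unadjusted edgeR p under 0.05, beside 3093 of all 12239 genes tested. The groups did not overlap for 5 of the 10 members, 3 higher (Stat3, Stat6 and Cish) and 2 lower (Socs2 and Pim2), beside 15.5% of all genes (8.44% higher and 7.05% lower). The median change of the 10 was 0.04 on the log2 scale, beside -0.0053 over all genes tested.

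**Figure D1:**
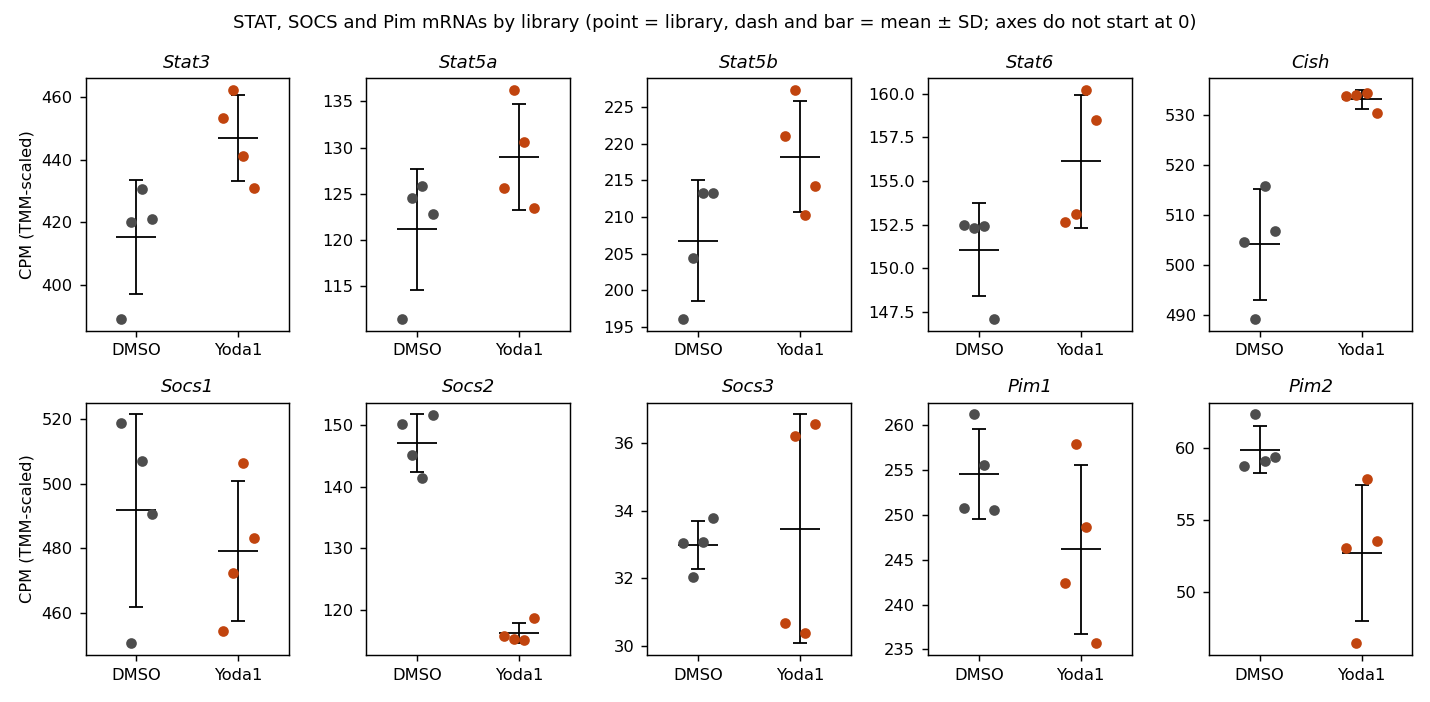
Normalized CPM of each member in every library, with 1 panel per gene, a point per library, a dash and bar for the group mean ± SD, and axes that do not start at 0. Socs2 sits between 142 and 152 CPM in DMSO and between 115 and 119 in Yoda1.

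To rank the members against each other, levels were divided by the length of each gene's principal transcript and are given as CPM per kilobase in DMSO. Cish was the most abundant at 177 ± 3.88, followed by Socs1 at 169 ± 10.2, and the libraries of these neighbours overlapped. Pim1 at 94.3 ± 1.86 and Stat3 at 92.0 ± 4.01 came next and also overlapped. Socs2 at 66.2 ± 2.09 and Pim2 at 53.8 ± 1.49 each stood apart from both neighbours. Stat6 at 40.0 ± 0.705 and Stat5b at 39.7 ± 1.58 overlapped, Stat5a followed at 31.2 ± 1.69, and Socs3 was the least abundant at 12.9 ± 0.280. Feedback genes thus held the first 2 places, the fifth and the last. With the union of all annotated exons as the length, an alternative chosen after seeing the data, Socs1 came first, Cish second with 78.5 and Socs2 ninth with 15.4. Pim2 moved from place 6 to 7 with 21.4, below Stat6 and Stat5b. Stat6 moved from place 7 to 6, Stat5b from 8 to 5 and Stat5a from 9 to 8. Pim1, Stat3 and Socs3 kept their places, so the order of the others depended on the transcript model, most of all for Socs2.

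**Figure D2:**
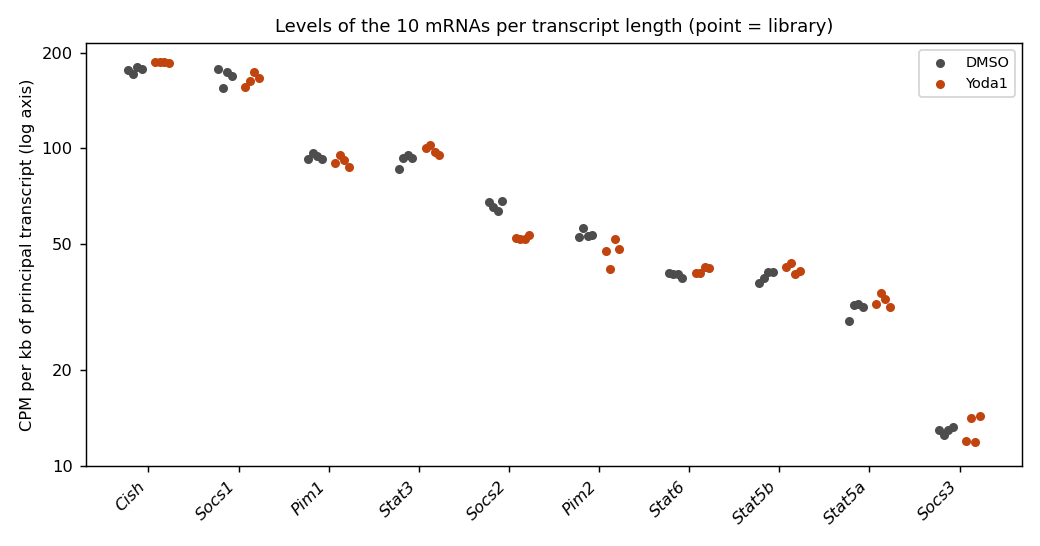
Level of each member in CPM per kilobase of principal transcript on a log axis, with a point for each library of both groups. Cish and Socs1 share the top of the range and Socs3 lies lowest, while the Socs2 points of the Yoda1 libraries lie below those of DMSO.

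No STAT member passed the test, by edgeR, DESeq2 or limma-voom, although 3 of the 4 had an unadjusted p under 0.05. An unadjusted edgeR p under 0.05 was also reached by 3093 of all 12239 genes tested. Stat3, which carries the IL-6, IL-10 and IL-21 signals, was at 389, 420.1, 430.7 and 421 CPM in the DMSO libraries and at 453, 462, 441 and 431.0 CPM in the Yoda1 libraries. The lowest Yoda1 library and the highest DMSO library differed by less than 1 CPM, so the groups were only just apart. The log2 fold change was 0.11 (SE 0.037), with an edgeR adjusted p of 0.0641 and a two-sided exact permutation p of 0.0286, the smallest that 4 libraries against 4 allow. Without the filter on low counts the adjusted p was 0.0442.

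Stat5a and Stat5b encode the near-identical STAT5 proteins through which IL-2 and IL-7 act. Stat5a was at 111, 125, 126 and 123 CPM in DMSO and 126, 136, 131 and 123 CPM in Yoda1. The first DMSO library was the lowest of all, and the groups overlapped. Stat5b was at 196, 204, 213 and 213 CPM in DMSO and 221, 227, 210.2 and 214 CPM in Yoda1, also with overlap. The log2 fold changes were 0.09 (SE 0.043, edgeR adjusted p = 0.187) for Stat5a and 0.08 (SE 0.038, edgeR adjusted p = 0.194) for Stat5b. The ratio of their counts, which library scaling cannot move, had a geometric mean of 0.586 in DMSO and 0.591 in Yoda1 (exact permutation p = 0.743).

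Stat6, which carries IL-4 and IL-13 signals, lay within a narrow range. Its DMSO libraries were at 152.5, 152.3, 152.4 and 147 CPM and its Yoda1 libraries at 152.7, 153.1, 160.2 and 158.5 CPM. The groups did not overlap, but 3 DMSO libraries lay within 1 CPM of the lowest Yoda1 libraries. The log2 fold change was 0.05 (SE 0.037, edgeR adjusted p = 0.453). All 4 STAT members had fold changes above 0 under every setting tried, and none exceeded 0.11 in the analysis as reported.

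The feedback genes did not move together. Socs2, an SH2 and SOCS-box protein that limits growth hormone and STAT5 signals, fell. It was at 150.2, 145, 142 and 152 CPM in the 4 DMSO libraries and at 116, 115, 115 and 119 CPM in the 4 Yoda1 libraries, from 1435 to 2652 counts. Every Yoda1 library lay below every DMSO library, with a spread of only 1.69 CPM (SD) around 116 in Yoda1 and 4.65 around 147 in DMSO. The log2 fold change was -0.34 (SE 0.038), a level 20.9% lower, with an edgeR adjusted p of 1.93e-07. By adjusted p Socs2 ranked 41 among the 12239 genes, and by size 26.4% of the changed genes changed at least as much. The fall passed the test under every alternative and with any library left out, where the log2 fold change ran from -0.36 to -0.32.

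Cish, also a STAT5-induced feedback gene, did not fall. Of the members searched it was the one with a pair of sites in its promoter window, shown above, and Socs2 was not searched. It was at 505, 489, 516 and 507 CPM in DMSO and at 534, 534, 534 and 530.4 CPM in Yoda1. All Yoda1 libraries were above all DMSO libraries and close to each other (SD 1.86 CPM, beside 11.1 CPM in DMSO). The log2 fold change was 0.08 (SE 0.033), which did not pass the test across genes (edgeR adjusted p = 0.121, two-sided exact permutation p = 0.0286).

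Socs1, which blocks JAK kinases directly and is induced by interferon gamma and IL-4 in many cells, spread widely in both groups. Its DMSO libraries were at 519, 451, 507 and 491 CPM and its Yoda1 libraries at 454.5, 472, 506 and 483 CPM. The ranges lay almost on top of each other, and the log2 fold change was -0.04 (SE 0.041, edgeR adjusted p = 0.631). Socs3, the inhibitor of gp130 receptors, was at 33.0, 32.04, 33.1 and 33.8 CPM in DMSO and 30.7, 36.2, 30.4 and 36.6 CPM in Yoda1. A pair of Yoda1 libraries lay above and a pair below all DMSO libraries, on 380 to 711 counts. Its log2 fold change was 0.03 (SE 0.063, edgeR adjusted p = 0.806), and it turned to -0.0052 without Yoda1 replicate 2 and to -0.016 without Yoda1 replicate 4.

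Because Cish and Socs2 both answer to STAT5, their counts were set against each other within each library, which removes library scaling. The ratio of Cish to Socs2 counts was 3.36, 3.37, 3.65 and 3.34 in DMSO and 4.61, 4.63, 4.64 and 4.47 in Yoda1. The groups were apart by more than the whole range of either one. The geometric mean went from 3.43 to 4.59, a log2 difference of 0.42, with a two-sided exact permutation p of 0.0286, which was 0.114 after adjustment over the 4 ratios computed. Cish and Socs2 already lay apart in opposite directions in the same counts, so this ratio is not separate evidence. The ratio of Socs1 to Socs3 was 14.9 in DMSO and 14.4 in Yoda1, with overlapping groups (exact permutation p = 0.6).

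**Figure D3:**
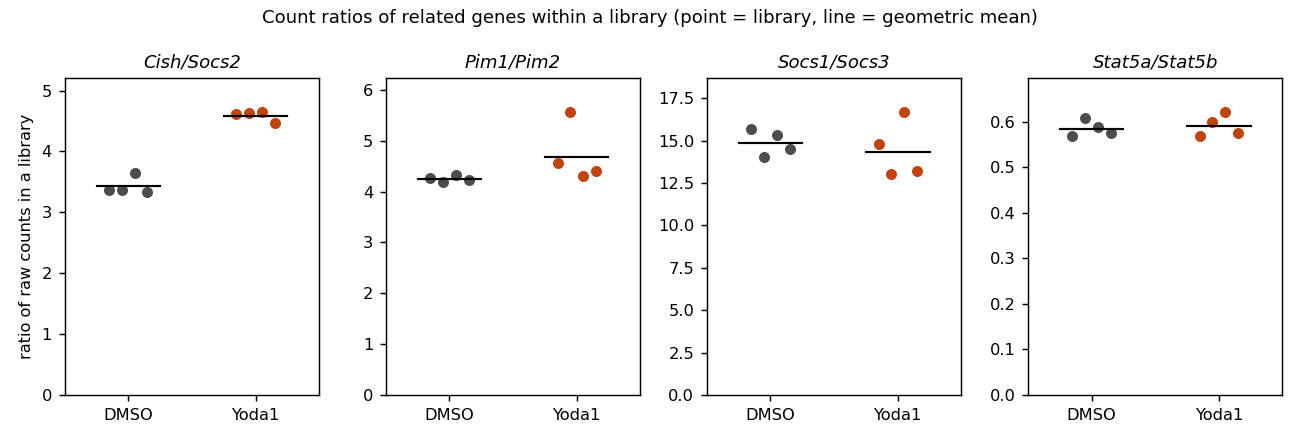
Ratios of raw counts of gene pairs within each library, with 1 panel per pair, a point per library and a line at the geometric mean of each group. The Cish to Socs2 ratio separates the groups, from 3.34 to 3.65 in DMSO and from 4.47 to 4.64 in Yoda1, and the Stat5a to Stat5b ratio does not.

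The Pim kinases are short-lived survival kinases made after cytokine signals through STATs. Pim2 was at 58.7, 62.3, 59.1 and 59.3 CPM in DMSO and at 53.0, 46.4, 57.8 and 53.5 CPM in Yoda1. All Yoda1 libraries were lower, with 1 of them within 1 CPM of the lowest DMSO library. The log2 fold change was -0.19 (SE 0.054, edgeR adjusted p = 0.0210), and without DMSO replicate 2 it was -0.17 (edgeR adjusted p = 0.0874) and without Yoda1 replicate 2 it was -0.13 (edgeR adjusted p = 0.113), neither past the test. Pim1 was at 251, 261, 256 and 251 CPM in DMSO and 242, 258, 249 and 236 CPM in Yoda1. Its groups overlapped, with a log2 fold change of -0.05 (SE 0.036, edgeR adjusted p = 0.433). The ratio of Pim1 to Pim2 counts was 4.25 in DMSO and 4.68 in Yoda1 as geometric means (two-sided exact permutation p = 0.0571, adjusted 0.114 over the 4 ratios).

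Relatives in the same families included genes that rose. Pim3 lay between 58.5 and 65.7 CPM in DMSO and between 71.4 and 80.9 CPM in Yoda1, without overlap. Its log2 fold change was 0.32 (SE 0.048, edgeR adjusted p = 2.57e-05), so among the Pim genes 1 rose and 1 fell. Socs4 was at 27.5, 27.1, 27.9 and 29.0 CPM in DMSO and at 33.6, 33.8, 31.3 and 32.5 CPM in Yoda1, and Socs5 was at 16.1, 19.8, 19.4 and 18.8 CPM and at 23.6, 23.0, 23.4 and 23.1 CPM. Both groups stood apart, and both genes rose, by log2 0.24 (SE 0.058, edgeR adjusted p = 0.00703) and 0.33 (SE 0.072, edgeR adjusted p = 0.00269). Socs4 and Socs5 are mainly linked to EGF receptor signals rather than to cytokine feedback. Socs6 (0.10, edgeR adjusted p = 0.382) and Socs7 (0.13, edgeR adjusted p = 0.0891) did not pass the test, and Socs7 did so without DMSO replicate 2 (edgeR adjusted p = 0.00886). Of the 8 SOCS family genes, 2 rose, 1 fell and 5 did not pass, beside 6.04% of all genes that rose and 4.84% that fell.

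**Figure D4:**
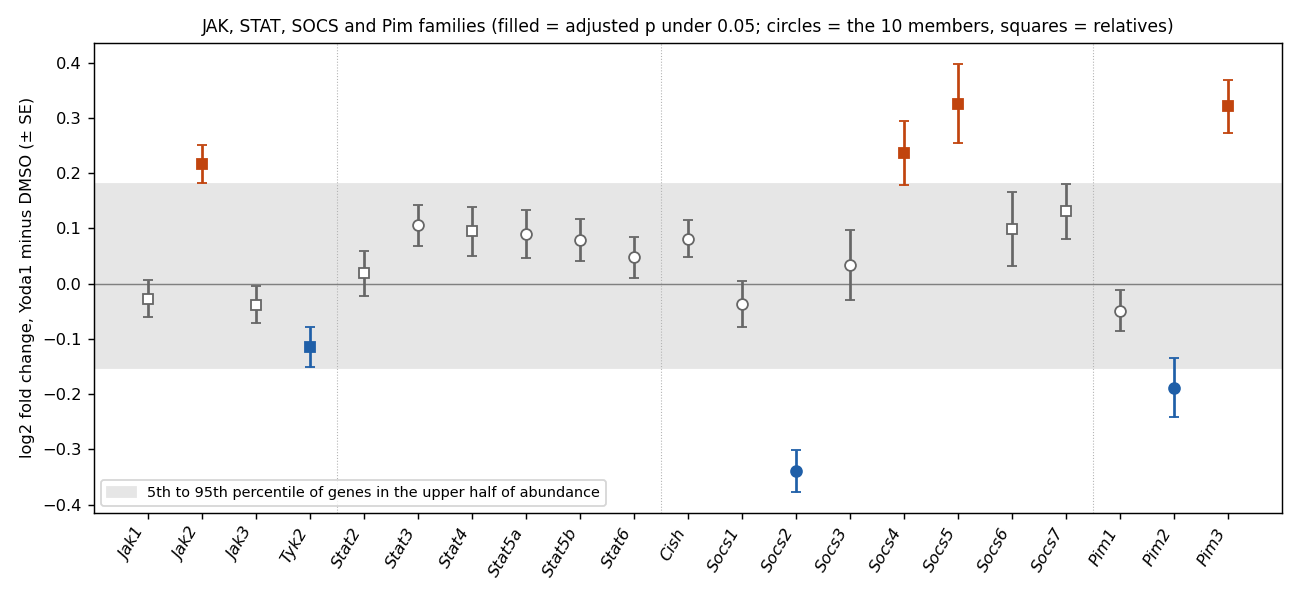
Log2 fold change of the JAK, STAT, SOCS and Pim genes reported, Yoda1 minus DMSO, with bars of 1 SE, circles for the 10 members, squares for relatives, filled symbols for genes past an edgeR adjusted p of 0.05 and a grey band from the 5th to the 95th percentile (-0.15 to 0.18) of genes above the median abundance. Socs2 (-0.34) and Pim2 (-0.19) are the filled circles and lie below the band. The same percentiles over all tested genes, -0.35 and 0.24, take in both. Socs5 and Socs6 are themselves under the median abundance that the band refers to.

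Of the STAT relatives reported here, Stat4, which carries the IL-12 signal, had a log2 fold change of 0.09 (adjusted p by edgeR = 0.177) and Stat2 one of 0.02 (edgeR adjusted p = 0.826). Stat4 shared 28.6% of its 50-base stretches with Gm28177, which overlaps it on the same strand, so part of its counts is uncertain.

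**Figure D5:**
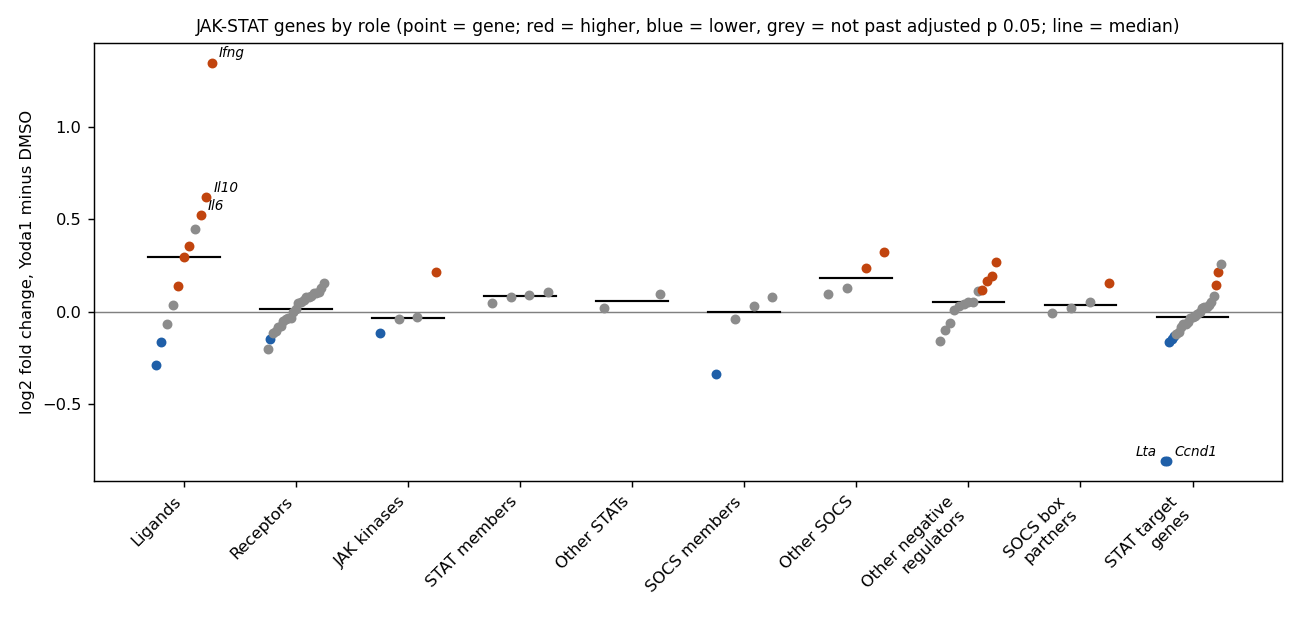
Log2 fold change of each tested JAK-STAT gene (vertical axis, Yoda1 minus DMSO) in columns by role, with a point per gene, red for genes past an edgeR adjusted p of 0.05 and higher, blue for lower, grey for the rest, and a line at the median of each column. Ifng lies highest at 1.35 among the ligands, and Lta and Ccnd1 lie lowest at -0.81 among the STAT target genes.

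The other genes of the pathway were taken as a list by role: 94 genes, of which 83 were tested. Of these 17 rose and 7 fell, 28.9% beside 10.9% of all genes, with a median log2 fold change of 0.03. The members and all lists by role were chosen with earlier results of these data known. The shares given for them therefore describe these genes only and cannot show an excess over other genes. The 11 untested genes had 0 to 12 counts in each library, among them Il2, whose protein was supplied in the medium. The receptor chains Il13ra1 and Il5ra (0 to 2 counts each), Il6ra (0 to 5), Lifr (4 to 12) and Osmr (0 to 12) were also untested.

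Jak2, which serves the IL-5 and GM-CSF receptors, rose from 757 ± 15.3 to 880 ± 24.1 CPM (log2 0.22, SE 0.034, edgeR adjusted p = 5.05e-05). Its DMSO libraries, at 734 to 767 CPM, lay clear of its Yoda1 libraries, at 858 to 904 CPM. Jak1 and Jak3, the pair bound to IL-2 and IL-7 receptors, had log2 fold changes of -0.03 and -0.04 (edgeR adjusted p = 0.666 and 0.533). Jak3 shared 8.94% of its 50-base stretches with Insl3, which overlaps it on the same strand. Tyk2 fell from 219 ± 5.16 to 203 ± 5.72 CPM (log2 -0.11, edgeR adjusted p = 0.0370). Its call held only without DMSO replicate 4 or Yoda1 replicate 3 among the libraries left out in turn, and the adjusted p ran from 0.0362 to 0.119.

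Among ligands that signal through JAK and STAT proteins, 6 of 11 tested genes were higher and 2 lower (6.04% and 4.84% of all genes), with a median log2 fold change of 0.30. Ifng, which encodes interferon gamma, rose from 106 ± 10.4 to 268 ± 12.1 CPM (log2 1.35, SE 0.055, edgeR adjusted p = 1.08e-11), Il13 from 5431 ± 187 to 6667 ± 114 CPM (0.30, edgeR adjusted p = 3.61e-07) and Csf2 from 87.8 ± 2.03 to 112 ± 4.31 CPM (0.35, edgeR adjusted p = 3.36e-07). Il5 rose from 3337 ± 80.6 to 3672 ± 92.5 CPM (0.14, edgeR adjusted p = 0.00733). Il6 rose from 15.7 ± 0.694 to 22.6 ± 1.59 CPM (log2 0.52, edgeR adjusted p = 9.35e-06) and Il10 from 2.998 ± 0.589 to 4.59 ± 0.218 CPM on 37 to 90 counts (0.62, edgeR adjusted p = 0.00878). IFN-gamma is a known inducer of Socs1, and IL-6 and IL-10 of Socs3, whose values are given above. Il6ra, a chain of the IL-6 receptor, had 0 to 5 counts in each library, and a response to these ligands was not tested. Osm, a gp130 ligand and a STAT5 target, fell from 218 ± 5.88 to 195 ± 4.25 CPM (log2 -0.16, edgeR adjusted p = 0.0027). Lif, of the same family, was at 1056 ± 6.78 and 1008 ± 7.18 CPM (-0.07, edgeR adjusted p = 0.198). Il9 had a log2 fold change of -0.29 (adjusted p by edgeR = 0.0465), a call that held only without DMSO replicate 2 or Yoda1 replicate 3 among the libraries left out in turn and was lost with DESeq2 (adjusted p = 0.0886).

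Of 23 receptor genes tested, 1 was called (4.35%, beside 10.9% of all genes), a count that was 0 without DMSO replicate 2, 2 without DMSO replicate 1 or Yoda1 replicate 3, 3 without Yoda1 replicate 2, 2 with DESeq2 or library size only, and 3 with upper-quartile factors or without the filter. The called gene was Il4ra, the receptor chain shared by IL-4 and IL-13, which fell from 455 ± 19.99 to 412 ± 10.6 CPM (log2 -0.15, SE 0.037, edgeR adjusted p = 0.00886) and gave an adjusted p of 0.0502 without DMSO replicate 2. The chains that bind the cytokines of the medium did not pass: Il2ra had a log2 fold change of 0.09 (adjusted p by edgeR = 0.115), Il7r of 0.11 (0.0574), Il2rg of 0.10 (0.0598) and Il2rb of -0.0022 (0.979). Il2rg passed with DESeq2 (adjusted p = 0.0435) and without Yoda1 replicate 2 (edgeR adjusted p = 0.0331), and Il7r without the filter on low counts (0.0411) and without Yoda1 replicate 3 (0.0219).

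Among 13 other negative regulators, 4 rose, beside 6.04% of all genes, and the count was 2 with library size only, with upper-quartile factors, and without DMSO replicate 2, Yoda1 replicate 2 or Yoda1 replicate 4. Ptpn6, the phosphatase SHP-1, rose from 61.7 ± 3.19 to 74.4 ± 2.02 CPM (log2 0.27, edgeR adjusted p = 0.000147) and Cblb, a ubiquitin ligase, from 70.6 ± 4.32 to 80.8 ± 3.44 CPM (0.20, edgeR adjusted p = 0.00615). Pias2 (0.17, edgeR adjusted p = 0.0311) and Ptprc, the phosphatase CD45 (0.12, edgeR adjusted p = 0.0301), rose by less. The call of Pias2 was lost without DMSO replicate 2 or 3 or Yoda1 replicate 2 or 4 (adjusted p up to 0.110), and that of Ptprc without DMSO replicate 1 or 2 or Yoda1 replicate 1, 2 or 4 (adjusted p up to 0.117). With library size only and with upper-quartile factors neither was called (adjusted p 0.0595 and 0.0765 for Pias2, 0.0816 and 0.115 for Ptprc), and Pias2 was not called with DESeq2 (0.0573). Of the 4 partners that link a SOCS box to a ubiquitin ligase, Elob, listed as Tceb2, rose (0.15, edgeR adjusted p = 0.0217) although its groups overlapped. That call was lost without DMSO replicate 2 or 3 or Yoda1 replicate 3 or 4 (adjusted p up to 0.0984), with library size only (0.0502) and with upper-quartile factors (0.0690).

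Of 25 known STAT target genes, 2 rose and 5 fell, beside 6.04% and 4.84% of all genes, with a median log2 fold change of -0.03. Lta, which encodes lymphotoxin alpha, was at 243, 223, 221 and 210.3 CPM in DMSO and at 126, 119, 138 and 131 CPM in Yoda1, far below every DMSO library (log2 -0.81, SE 0.046, edgeR adjusted p = 6.90e-13). Ccnd1, the cell cycle gene cyclin D1, fell from 5.09 ± 0.380 to 2.88 ± 0.339 CPM on 32 to 94 counts (log2 -0.81, edgeR adjusted p = 0.000362), and Ccnd3 by 0.13 on the log2 scale (edgeR adjusted p = 0.0203). The call of Ccnd3 was lost without DMSO replicate 2 (adjusted p by edgeR = 0.0768), Yoda1 replicate 1 (0.0986) or Yoda1 replicate 4 (0.0724). Osm and Il4ra, given above, are the other falls. Irf1, an interferon-induced transcription factor, rose by log2 0.14 (edgeR adjusted p = 0.00478) and Gzmb, which encodes granzyme B, by 0.22 (edgeR adjusted p = 0.00203). Myc had a log2 fold change of -0.03 (adjusted p by edgeR = 0.692) and Bcl6, which STAT5 represses, of 0.26 on 46 to 99 counts (edgeR adjusted p = 0.304).

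The tested genes whose levels followed Socs2 most closely over the 8 libraries, by Pearson's r of log2 CPM, were Cat (0.986), Ptpre (0.981) and Txnip (0.979). The 8 points share the split into DMSO and Yoda1, so these values describe mainly that split. Txnip, a thioredoxin-binding protein, fell by 0.55 on the log2 scale (edgeR adjusted p = 3.22e-13) and Ptpre, a tyrosine phosphatase, by 0.45 (edgeR adjusted p = 2.55e-06). Cat, which encodes catalase, had a log2 fold change of -0.15 (adjusted p by edgeR = 0.0372), a call that was lost with each of the 8 libraries left out in turn, with DESeq2 (0.0819) and without the filter (0.0593).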

How the data were processed

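Raw read counts were taken as the authors deposited them, 1 file per library, each with whole-number counts for 23183 genes listed by symbol. Per the submitters' processing notes, TopHat and mm10 were used, and BBMap, Cufflinks, Cuffdiff, FASTX Trimmer and FastQC appear in the study's methods. Versions, annotation, counting tool and strand setting are not given in the sources used here. Ranges of counts give the lowest and highest raw count over the 8 libraries and are not scaled for library depth.

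Genes were filtered with filterByExpr (minimum count 10, minimum total 15), leaving 12239, scaled with TMM, and compared in R 4.3.3 with edgeR 4.0.16 (robust quasi-likelihood, Benjamini-Hochberg over all 12239). The SE is the absolute log2 fold change divided by the root of F. Ratios of counts were compared by two-sided exact permutation tests. Within a group, every pair of libraries differed by more than sampling noise, so all 8 were kept. The code was tested on simulated data. The members and gene lists were chosen with earlier results of these data known. Named genes are the members, every called gene of the pathway lists, the JAK, STAT, SOCS and Pim relatives, receptors of the medium's cytokines, Bcl6, Myc, Il2, and the 3 tested genes most like the fallen member with the smallest adjusted p. Lif, the untested receptor chains and the single markers of ILC2s and of NK or CD8 T cells were named after their values were seen. Alternatives were DESeq2 1.42.0, limma-voom (limma 3.58.1), upper-quartile factors, library size only, no filter, at least 10 counts in every library, the replicate block, and each library left out. Gene models came from GENCODE M21 and promoters from RefSeq. Trac, Trbc1 and Trbc2 were not analysed here, and a pathway gene and a marker gene were left out of the lists and are not reported here.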

Additional observations from a re-analysis of the deposited data

Results flagged for a closer look

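Values that stood apart from the other 3 of their group, by Dixon's test at the 95% level, were found in 6 of 106 groups, about what chance gives at 1 in 20. Among the members, Stat6 was at 147 CPM in DMSO replicate 4, below 152 in the next library, and Cish was at 530.4 CPM in Yoda1 replicate 4, below 534. In the pathway lists, Jak2 was at 734 CPM in DMSO replicate 1, below 763, Osm at 188 CPM in Yoda1 replicate 2, below 196, and Pias2 at 39.3 CPM in DMSO replicate 3, below 41.3. The ratio of Cish to Socs2 counts was 3.65 in DMSO replicate 3, above 3.37 in the next library and below 4.47, the lowest Yoda1 value.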

How the results depend on the processing

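Socs2 kept its direction and its call under every alternative. The count of members called, 2, was 1 with the replicate block and 1 to 2 with a library left out. Pim2 was no longer called with the block (-0.19, edgeR adjusted p = 0.0528), and its log2 fold change ran from -0.23 to -0.13 with a library left out. Stat3 was called without the filter (0.11, adjusted p = 0.0442). Socs3 ran from -0.016 to 0.077 with a library left out, Il2rb from -0.032 to 0.021, and the log2 difference of the Stat5a to Stat5b ratio from -0.011 to 0.032. Stat2 turned to -0.0026 with library size only and -0.012 with upper-quartile factors, and ran from -0.00057 to 0.040 with a library left out. Over all genes, falls were 958 with upper-quartile factors and 367 to 677 with a library left out (367 without DMSO replicate 2, 374 without Yoda1 replicate 4), and rises 519 to 807. Falls in the pathway list, 7, were 11 with upper-quartile factors, 4 with the block and 4 to 7 with a library left out. JAK kinases called, 2, were 1 with the block and 1 to 2 with a library left out. Receptors called, 1, were 2 with DESeq2 and with library size only, 3 with upper-quartile factors and without the filter, and 0 to 3. Negative regulators called, 4, were 2 with library size only, upper-quartile factors and the block, and 2 to 4. SOCS-box partners called, 1, were 0 with those 3 settings and 0 to 1. The cause of these shifts was not tested. Libraries of the 2 groups share only a number: their deviations correlated by 0.048, 0.071, -0.028 and 0.00023, not every library correlated best with its own number, and the block gave 966 called genes in place of 1331. Besides Pim2, the block ended the calls of Tyk2, Il5, Il9, Pias2, Ptprc, Elob, Ccnd3 and Cat, and of no other named gene.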
